A study of Mus musculus with 18 samples.

Results

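The comparison described here is that of mice fed a fish and fungal oil diet with mice fed a lard diet, in livers that lack cytochrome P450 reductase in hepatocytes. Its members were chosen by the labels' genotype and diet and are 6 of the 18 arrays of the study: 3 arrays of knockout livers on fish/fungal oil and 3 arrays of knockout livers on lard. The mice of both groups were 12-week-old males of the genotype Alb-Cre+/-/POR-lox+/+, in which Cre driven by the albumin promoter deletes the floxed reductase gene in hepatocytes. Mice with the same floxed alleles and no Cre (Alb-Cre-/-/POR-lox+/+) on fish/fungal oil and on lard, 3 arrays each, and knockout mice on canola oil, 3 arrays, were used to show where the comparison differs.

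Feeding began at an age of 4 weeks and lasted 8 weeks, and livers were taken after a 4 h fast. They were built on 1 base diet and differed in the source of fat. The fish/fungal diet carried 3.27% ARASCO, a fungal oil rich in arachidonic acid, and 2.73% menhaden oil, a fish oil rich in long omega-3 fatty acids. All diets held 0.025% cholesterol, and the added fat is given as 7% in the sample labels and 6% in the text on the series. RNA of 3 mice was pooled for each array (9 mice in a group), and the pool is the replicate. As a model, the knockout keeps the reductase in cells of the liver that do not make albumin. No probe set is named for Por in the annotation used, so the deletion itself was not analysed here and the genotype rests on the labels.

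P450 reductase hands electrons to the microsomal cytochromes P450, among them the sterol demethylase of cholesterol synthesis. It also serves a few other enzymes, squalene epoxidase among them. The liver makes fatty acids from carbohydrate, desaturates and elongates the dietary essential fatty acids into arachidonic, eicosapentaenoic and docosahexaenoic acid, and makes cholesterol. Genes of these pathways are targets of the sterol regulatory element binding proteins (SREBPs), and polyunsaturated fatty acids are known to lower the activity of SREBP-1 in liver. Long polyunsaturated fatty acids are also ligands of PPARalpha, the nuclear receptor that drives fatty acid oxidation.

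The values are RMA expression values on a log2 scale, so that a difference of 1 is a doubling. Array medians lay between 5.229 and 5.286 in the whole study. Correlations between knockout arrays ran from 0.9929 to 0.99564 within the diets compared and from 0.99103 to 0.99552 between them. Of the hepatocyte markers 11 of 14 were measured above the brightness filter, and none of the 11 passed the test. Their summed level was 17.32 to 17.36 in knockout fish/fungal pools and 17.35 to 17.40 in knockout lard pools. A summed level here is the log2 of the sum of the unlogged values, so the brightest genes weigh most. The 3′ minus 5′ difference of the array's own β-actin probe sets was read as a sign of RNA integrity. It was 0.68 to 0.85 in knockout fish/fungal pools and 0.54 to 0.94 in knockout lard pools, so the groups overlapped. The highest β-actin value of the pools compared, 0.94, was that of knockout lard replicate 1. That pool was also highest for the array's Gapdh probe sets, at 0.17 against -0.15 to 0.06 in the other pools compared. For the pyruvate carboxylase probe sets it had 3.3, against 2.08 to 2.74. Whether this bears on the calls lost without that pool was not tested. In a bulk sample, fewer cells of a type and less RNA per cell cannot be told apart.

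In knockout livers many more genes were lower than higher on fish/fungal oil. Of 12578 genes tested, 58 passed the threshold (limma, Benjamini-Hochberg adjusted p under 0.05), which is 0.461% of all genes. Of these 53 were lower (0.421%) and 5 were higher (0.0398%) in fish/fungal than in lard pools. Changes of at least 2-fold were found for 25 of the lower and 3 of the higher genes. The 3 pools of the diets did not overlap in any of the 58, while over all genes tested 10.9% did not overlap (6.14% with fish/fungal pools lower, 4.81% with them higher). Without a correction for multiple tests, 1076 genes had p under 0.05. The median change over all genes was -0.01. The lists of polyunsaturated fatty acid desaturation and elongation, fatty acid synthesis, and cholesterol synthesis and uptake supplied 18 of the 53 lower genes. Not all of the 18 are enzymes of these pathways: Rdh11 is a retinol dehydrogenase and Stard4 a sterol carrier. The calls depended on single pools: 11 of the 58 were kept without each of the 6 pools in turn, and the other 47 were lost without at least 1. The count was 12 without lard replicate 1, 34 without lard replicate 3, 32 without fish/fungal replicate 1, 19 without fish/fungal replicate 3 and 116 without fish/fungal replicate 2. With only the 6 arrays in the fit it was 12, and with arrays weighted by quality it was 30.

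The delta-5 and delta-6 desaturases and the elongases Elovl5 and Elovl2, which build long polyunsaturated fatty acids from the essential precursors, were lower on fish/fungal oil. Of all genes tested, Fads1 had the smallest p. Fads1, the delta-5 desaturase, stood at 8.04, 8.90 and 7.74 in knockout fish/fungal pools, against 11.68, 11.08 and 12.01 in knockout lard pools. All fish/fungal pools lay far below all lard pools, and the change was 10.3-fold (log2 change -3.37 ± 0.26 SE, adjusted p = 3.79e-06). Fads2, the delta-6 desaturase, stood at 9.25, 9.61 and 9.22 in fish/fungal pools and at 10.99, 11.17 and 12.38 in lard pools. Lard pool 3 was the highest, and the groups did not overlap (4.43-fold lower; log2 change -2.15 ± 0.27, adjusted p = 0.000997). Elovl5, the elongase of fatty acids of intermediate length, stood at 10.88, 11.59 and 10.44 in fish/fungal pools and at 12.99, 12.54 and 13.25 in lard pools. It was 3.87-fold lower (adjusted p = 0.00356). Elovl2, the elongase of the longest precursors, was tight in fish/fungal pools at 11.46, 11.51 and 11.47, against 12.16, 12.13 and 12.50 in lard pools. Its fall of 0.78 ± 0.11 on the log2 scale was smaller than that of the other 3 members (adjusted p = 0.00166).

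The list of polyunsaturated fatty acid desaturation and elongation had 14 members tested, of which these 4 were lower and 0 higher, with a median change of -0.18. Of the other 10 members none passed. Fads3, a desaturase relative, was at -0.01 and Elovl3 at 0.02. The reductases Tecr and Cyb5r3 were at -0.52 (adjusted p = 0.106) and -0.62 (adjusted p = 0.108). The elongation cycle genes Hacd2 and Hacd3 were near 0, at 0.09 and 0.03. The 4 calls were kept without each of the 6 pools in turn. Without lard replicate 2 the list had 6 calls.

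**Figure D1:**
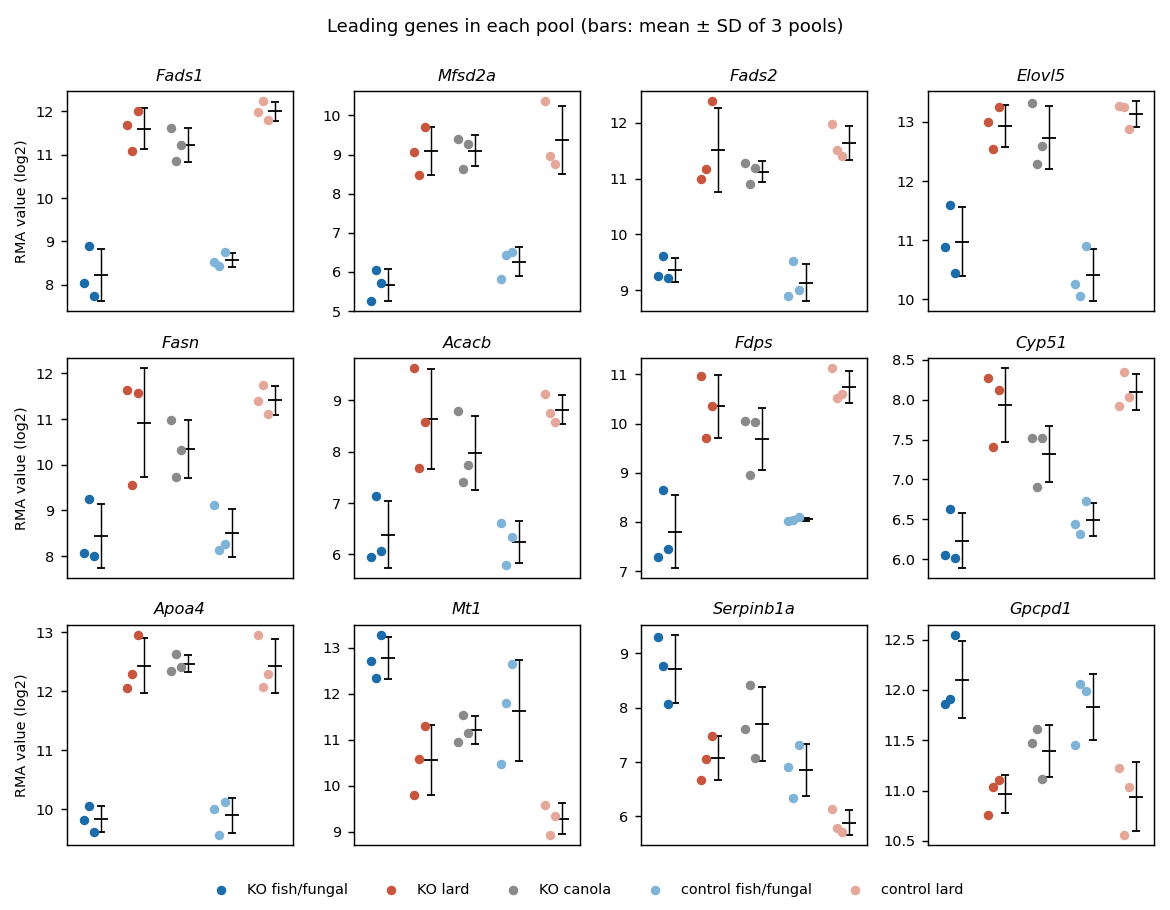
RMA expression (log2) of 12 leading genes in each pool, with panels by gene, points for pools and bars for the mean ± SD of 3 pools. In the fish/fungal pools of both genotypes Fads1 stays below 9 while all pools on lard or canola lie above 10.8, and Mt1 is higher in every knockout fish/fungal pool than in every knockout lard pool.

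Mfsd2a, which in brain and eye imports docosahexaenoic acid as lysophosphatidylcholine, had the largest fall of all. It stood at 5.25, 6.06 and 5.71 in knockout fish/fungal pools, against 9.05, 8.48 and 9.71 in knockout lard pools. Fish/fungal pool 1 lies at about the array medians and the other fish/fungal pools less than 1 log2 unit above them. The change as measured was 10.6-fold, and detection calls were not used here (log2 change -3.41 ± 0.40, adjusted p = 0.000565). The list of phospholipid synthesis and remodelling, to which it was assigned, had 21 members tested. Mfsd2a was the 1 that passed, and the list median was -0.05. Among the genes that rose, Gpcpd1, a glycerophosphocholine phosphodiesterase, also belongs to phospholipid turnover and is described with the higher genes.

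Of 25 genes of fatty acid synthesis tested, 5 passed, all lower, 23 had a negative change, and the median was -0.78, against -0.01 over all genes. Fasn, the fatty acid synthase, stood at 8.06, 9.26 and 8.00 in knockout fish/fungal pools, against 11.64, 9.55 and 11.57 in knockout lard pools. Fish/fungal pool 2 and lard pool 2 came close to each other, and the groups did not overlap (5.59-fold lower; log2 change -2.48 ± 0.47, adjusted p = 0.0242). Acacb, the acetyl-CoA carboxylase that makes malonyl-CoA at mitochondria, stood at 5.95, 7.14 and 6.07 in fish/fungal pools and at 9.63, 7.69 and 8.59 in lard pools (4.76-fold lower, adjusted p = 0.0219). Acly, which makes cytosolic acetyl-CoA from citrate, was 2.84-fold lower (adjusted p = 0.0396). Rdh11, a retinol dehydrogenase, was 3.09-fold lower (adjusted p = 0.00665), and Acsl3, an acyl-CoA synthetase, fell by 1.18 ± 0.18 on the log2 scale (adjusted p = 0.00472).

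Several well known members of the group had changes of similar size and did not pass. Me1, the malic enzyme that supplies NADPH, stood at 8.10, 10.01 and 7.96 in fish/fungal pools and at 11.32, 9.47 and 11.75 in lard pools. Fish/fungal pool 2 lay above lard pool 2, so the groups overlapped (log2 change -2.16 ± 0.54, adjusted p = 0.108). Acaca was at -1.14 (adjusted p = 0.214), Elovl6 at -1.20 (0.45) and Scd1, the stearoyl-CoA desaturase, at -0.55 (0.286). The same pools stood apart in other genes of lipid synthesis. Over the 46 genes of fatty acid and cholesterol synthesis tested, fish/fungal pool 2 was the highest of its group in 34 genes and lard pool 2 the lowest of its group in 38, against 40.4% and 37.8% of all genes tested. Without lard replicate 2 the fatty acid list had 9 calls and without fish/fungal replicate 2 it had 7. Without lard replicate 1 it had 0, and it had 2 without lard replicate 3, without fish/fungal replicate 1 and without fish/fungal replicate 3.

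Of 21 genes of cholesterol synthesis and uptake tested, 9 passed, all lower, 20 had a negative change, 15 had non-overlapping and lower fish/fungal pools (6.14% of all genes did), and the median was -0.98. The other 5 genes of the list were not analysed here. Among early enzymes, Fdps, the farnesyl diphosphate synthase, stood at 7.29, 8.65 and 7.45 in knockout fish/fungal pools, against 10.98, 9.71 and 10.36 in knockout lard pools. All fish/fungal pools were below all lard pools (5.86-fold lower; log2 change -2.55 ± 0.36, adjusted p = 0.00201). Idi1, the isopentenyl diphosphate isomerase, stood at 6.72, 6.69 and 5.60 in fish/fungal pools and at 8.66, 7.62 and 8.90 in lard pools (4.16-fold lower, adjusted p = 0.00472). Hmgcs1, the synthase of the first committed intermediate, was at -1.22 and missed the threshold (adjusted p = 0.0553), and Mvk and Mvd, the kinase and the decarboxylase of the mevalonate steps, were at -0.15 and -0.34.

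In the later part of the pathway, Cyp51, the lanosterol demethylase and itself a P450 that takes electrons from the deleted reductase, stood at 6.05, 6.63 and 6.02 in fish/fungal pools and at 8.27, 7.41 and 8.12 in lard pools. No fish/fungal pool reached the lowest lard pool (3.25-fold lower; log2 change -1.70 ± 0.23, adjusted p = 0.00166). Nsdhl, a sterol dehydrogenase, was 2.74-fold lower (adjusted p = 0.0122). Lss, the cyclase that makes lanosterol, was at -1.09 (adjusted p = 0.0336), and Dhcr7, which makes cholesterol from its last precursor, was at -1.11 (0.0292). The sterol reductase gene Tm7sf2 fell by 0.95 and the desaturase gene Sc5d by 0.76 on the log2 scale (adjusted p = 0.00966 and 0.015). Stard4, a cytosolic sterol carrier, was 8.40, 8.89 and 8.36 in fish/fungal pools and 9.92, 9.49 and 9.68 in lard pools (adjusted p = 0.00112). Sqle, the squalene epoxidase and another partner of the reductase, was at 5.27, 5.31 and 4.97 in fish/fungal pools, against 7.37, 5.49 and 7.11 in lard pools. Its fish/fungal values lie near the array medians as does lard pool 2, and it did not pass (log2 change -1.48 ± 0.39, adjusted p = 0.14). Leaving out lard replicate 1 left 3 calls in the list, leaving out lard replicate 2 gave 13, and leaving out fish/fungal replicate 2 gave 12. With only the 6 arrays in the fit 1 call was left here and 0 in the fatty acid list, and with array weights 5 and 2. It had 5 calls without lard replicate 3, 5 without fish/fungal replicate 1 and 4 without fish/fungal replicate 3.

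**Figure D2:**
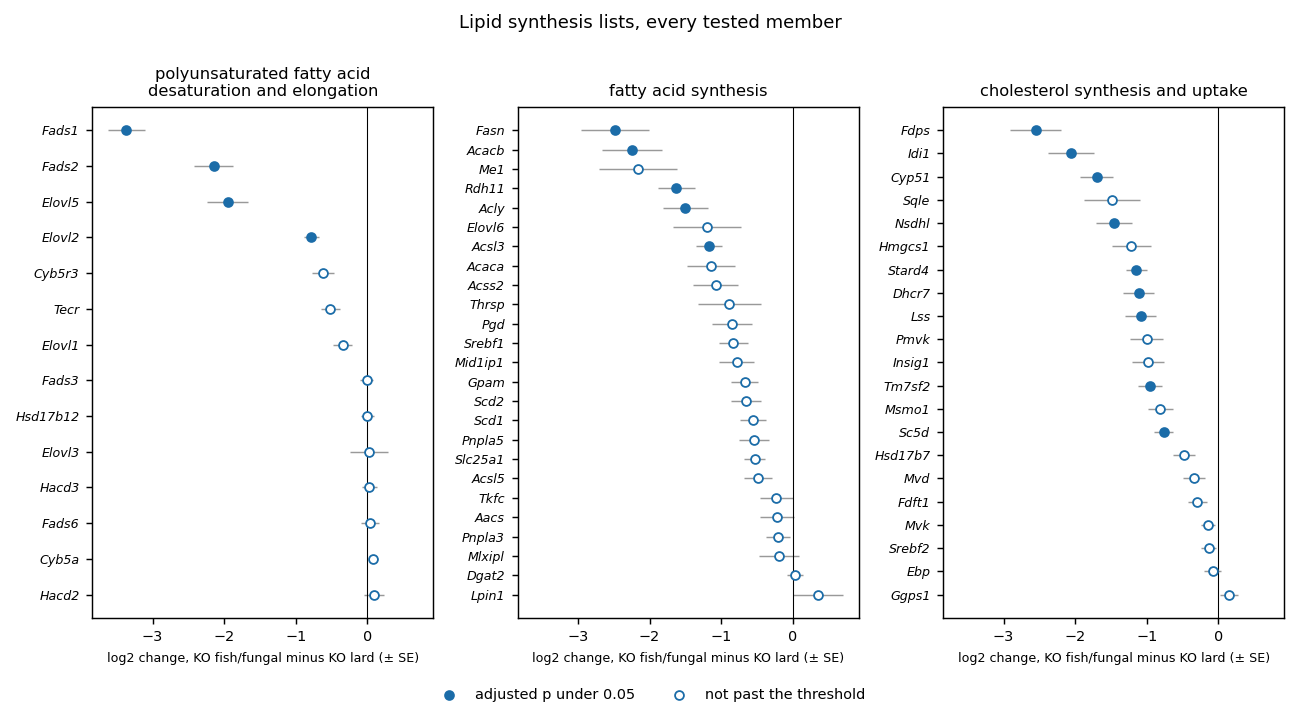
Log2 change in knockout livers, fish/fungal minus lard, with its standard error for every tested member of 3 lipid synthesis lists, filled where the adjusted p is under 0.05. Filled points number 4 of 14, 5 of 25 and 9 of 21 from left to right, and all of them lie left of 0.

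Regulators of these genes did not pass. Srebf1, which encodes SREBP-1, stood at 10.44, 10.90 and 10.50 in knockout fish/fungal pools, against 11.63, 11.31 and 11.40 in knockout lard pools. The groups did not overlap and the change did not pass (log2 change -0.83 ± 0.20, adjusted p = 0.0969). In control livers Srebf1 passed at -1.10 (adjusted p = 0.0122). Insig1, an SREBP target that holds the precursor in the endoplasmic reticulum, was at -0.98 (adjusted p = 0.0698), and Insig2 at -0.74 (0.193). Srebf2, which encodes SREBP-2, was at -0.14, Mlxipl, the carbohydrate response factor ChREBP, at -0.19, and Nr1h3, the oxysterol receptor LXRalpha, at -0.08, none of them past the threshold. Insig1 and Srebf1 passed without fish/fungal replicate 2 (adjusted p = 0.0351 and 0.0498).

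The promoters of 4 genes are printed to show where motif letters lie. The first 3 are lower genes that carry GATTGG, and the last is Mt1, a higher gene. RefSeq promoter windows on build GRCm38.p6, from 250 bases before to 50 after the start, were matched by symbol to 42 of the 53 lower genes and 2 of the 5 higher ones. GATTGG on either strand is in capitals in the first 3 windows. It is a form of the inverted CCAAT box known to bind NF-Y, a factor that works with SREBPs at sterol genes. Other forms of that box, such as the cattgg in the Idi1 window, were not marked or counted. In the Mt1 window the capitals mark TGCACNC or TGCGCNC on either strand, forms of the metal response element through which metallothionein genes answer to zinc.
Mfsd2a (chr4:122961139-122961438, minus strand): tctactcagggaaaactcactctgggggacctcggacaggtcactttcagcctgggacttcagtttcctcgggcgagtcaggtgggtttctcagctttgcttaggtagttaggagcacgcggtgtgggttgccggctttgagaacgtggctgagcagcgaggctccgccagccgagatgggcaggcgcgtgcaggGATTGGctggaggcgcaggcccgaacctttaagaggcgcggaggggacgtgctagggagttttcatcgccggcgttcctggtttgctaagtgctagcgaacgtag
Idi1 (chr13:8885356-8885655, plus strand): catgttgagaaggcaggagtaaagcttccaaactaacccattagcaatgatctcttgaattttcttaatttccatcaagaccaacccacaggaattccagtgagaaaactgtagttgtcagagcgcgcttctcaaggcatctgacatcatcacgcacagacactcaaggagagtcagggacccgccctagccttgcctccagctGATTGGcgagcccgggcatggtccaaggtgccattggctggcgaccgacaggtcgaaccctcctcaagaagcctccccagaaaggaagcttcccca
Cyp51 (chr5:4104648-4104947, minus strand): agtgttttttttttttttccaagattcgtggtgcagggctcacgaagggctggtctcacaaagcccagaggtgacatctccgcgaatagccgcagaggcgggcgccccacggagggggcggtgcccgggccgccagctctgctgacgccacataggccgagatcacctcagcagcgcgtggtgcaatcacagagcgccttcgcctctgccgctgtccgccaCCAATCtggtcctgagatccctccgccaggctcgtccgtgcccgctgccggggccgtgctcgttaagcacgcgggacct
Mt1 (chr8:94178839-94179138, plus strand): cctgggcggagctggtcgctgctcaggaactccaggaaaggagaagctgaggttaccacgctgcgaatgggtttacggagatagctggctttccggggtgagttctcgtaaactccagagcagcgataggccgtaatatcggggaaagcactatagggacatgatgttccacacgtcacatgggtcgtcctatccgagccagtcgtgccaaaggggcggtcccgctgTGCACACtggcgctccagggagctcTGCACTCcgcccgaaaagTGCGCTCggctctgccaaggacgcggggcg
GATTGG was found for 17 of the 42 lower genes (40.5%), against 16.1% of all 32851 windows and 22.8% of the 10125 tested genes with a window. Cyp51, Idi1, Lss, Dhcr7, Nsdhl, Sc5d and Tm7sf2 of cholesterol synthesis were among the 17, as were Acly, Elovl5 and Mfsd2a. The strict sterol regulatory element letters TCACNCCAC were in windows of 2 lower genes, Camk1d and Echdc1, and in 1.24% of all windows. The E-box CACGTG was found for 5 of the 42 (11.9%), against 7.15% of all windows and 11.5% of tested genes. The Mt1 window holds 3 metal response element matches, none overlapping another. TGCACNC occurs in 12.6% of all windows, in 15.6% of tested genes and in 7 of the 42 lower genes. TGCGCNC occurs in 15.4% of all windows, in 28.8% of tested genes and in 10 of the 42. A match of letters describes the window and does not show binding.

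Among lipoprotein genes, Apoa4, an apolipoprotein of chylomicrons and high density lipoprotein, stood at 9.82, 10.06 and 9.61 in knockout fish/fungal pools, against 12.05, 12.29 and 12.95 in knockout lard pools. Its groups were far apart (6.05-fold lower; log2 change -2.60 ± 0.28, adjusted p = 0.000295). Apoc2, the activator of lipoprotein lipase, was 11.83, 11.75 and 11.66 in fish/fungal pools and 12.29, 12.55 and 12.42 in lard pools (log2 change -0.67 ± 0.09, adjusted p = 0.00162). These were the 2 lower genes of 21 in the list, whose median was -0.04, and Apoa1, the main protein of high density lipoprotein, was at -0.08. Fabp2, the intestinal type of fatty acid binding protein, was at -0.86 (adjusted p = 0.0234), the 1 gene of 23 in lipid uptake and lipid droplets that passed. Lpl, lipoprotein lipase, was higher at 11.51, 11.53 and 11.55 in fish/fungal pools against 10.94, 11.01 and 10.60 in lard pools, without overlap, and just missed the threshold (log2 change 0.68 ± 0.15, adjusted p = 0.0566). It passed with quantile normalization repeated (adjusted p = 0.0479). The calls of Mfsd2a, Apoa4 and Apoc2 were kept under every alternative run, as were those of Fads1, Elovl5, Elovl2 and Cyp51 and of no other gene.

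The 5 genes that rose do not belong to the lipid lists. Mt1, a metallothionein that binds zinc and copper, stood at 12.71, 12.35 and 13.27 in knockout fish/fungal pools, against 9.80, 10.58 and 11.31 in knockout lard pools. Every fish/fungal pool was higher than every lard pool (4.64-fold higher; log2 change 2.22 ± 0.43, adjusted p = 0.0288). Mt2, its neighbour in function, named after its values were seen, had 11.07, 10.73 and 11.80 in fish/fungal pools and 7.78, 8.55 and 9.94 in lard pools, and did not pass (log2 change 2.45 ± 0.55, adjusted p = 0.0566). Serpinb1a, an inhibitor of neutrophil proteases, stood at 9.30, 8.77 and 8.06 in fish/fungal pools and at 6.67, 7.06 and 7.48 in lard pools (3.13-fold higher, adjusted p = 0.0477). Gpcpd1 was 11.86, 11.91 and 12.54 in fish/fungal pools and 10.75, 11.04 and 11.11 in lard pools (2.20-fold higher, adjusted p = 0.0288). Adam11, a catalytically inactive member of the ADAM family, rose by 0.84 and Car14, a membrane carbonic anhydrase, by 0.62 on the log2 scale (adjusted p = 0.0213 and 0.0234). The Mt1 value is from a probe set of the kind that can bind several transcripts, and a second, dimmer probe set of Mt1 gave 0.16 (adjusted p = 0.953 without probe sets of that kind). None of the 5 rises passed without lard replicate 1.

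Other genes that fell have varied roles. Tubb2a, a beta-tubulin, was 9.25, 9.04 and 8.54 in knockout fish/fungal pools, against 10.77, 10.57 and 10.83 in knockout lard pools (3.43-fold lower, adjusted p = 0.0256). Its groups did not overlap. Without probe sets prone to cross-hybridization the value of Tubb2a came from another, dimmer probe set and was -0.58 in place of -1.78 (adjusted p = 0.55). Camk1d, a calcium/calmodulin-dependent kinase, was 3.00-fold lower (adjusted p = 0.0242), and Serpina12, the adipokine vaspin, was 3.00-fold lower (adjusted p = 0.0417). Serpina12 was the 1 gene of 20 male-biased genes that passed. Gsta3, a glutathione transferase, was at -0.45 (adjusted p = 0.0403), the 1 of 23 NRF2 targets. H2-Q10, a secreted class I molecule made by the liver, stood at 12.93, 13.03 and 12.79 in fish/fungal pools and 13.32, 13.35 and 13.52 in lard pools (log2 change -0.47 ± 0.07, adjusted p = 0.00428). The junction genes Cldn2, Tjp3 and Cxadr were at -0.62, -0.70 and -1.01 (adjusted p = 0.0336, 0.0355 and 0.00536). Pstpip2, an adaptor of the actin cytoskeleton, and Paqr9, a progestin receptor relative, were at -1.18 and -0.87 (adjusted p = 0.00966 and 0.023). Of the rest, Cib3, Zfand4, Echdc1, Tubb6, Olfm3, Dntt, Sntb1, Pter, 4732419C18Rik and Cdc42ep5 lay between -1.21 and -0.45.

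For 10 of the 58 genes, all lower on fish/fungal oil, the knockout canola mean lay nearer to the fish/fungal mean than to the lard mean. For the other 48 it lay nearer to lard. All 18 genes of the 3 lipid synthesis lists that passed were among the 48. The 10 genes are Sprr1a, Il33, Mcm6, Pclaf, Ptgds, Adamdec1, Parp12, Slc51b, Slc39a10 and Rnd2. The canola levels are given as a description and were not tested here. Sprr1a, a cornified envelope protein, stood at 5.01, 5.06 and 5.00 in knockout fish/fungal pools, against 5.83, 6.18 and 7.53 in knockout lard pools (log2 change -1.49 ± 0.30, adjusted p = 0.0336). Its fish/fungal values lie below the array medians, and lard pool 3 is far above the others. Sprr1a lay above the array median in 5 arrays, all of them knockout pools on lard or canola. It passed the brightness filter only through these. Knockout canola pools had 5.27, 5.74 and 4.82. Mcm6, a subunit of the replicative helicase, stood at 7.33, 7.29 and 6.83 in fish/fungal pools and at 8.19, 7.71 and 8.36 in lard pools, with 7.38, 7.30 and 7.20 in knockout canola pools. All 3 canola pools lay below all lard pools, and the change between fish/fungal oil and lard was -0.94 ± 0.16 (adjusted p = 0.00966). Pclaf, a PCNA-binding protein of replication, was 5.49, 5.60 and 5.05 in fish/fungal pools, 6.40, 6.07 and 6.52 in lard pools and 5.82, 5.58 and 5.32 in canola pools (adjusted p = 0.0173).

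Among the remaining genes of this kind are signalling and immune genes. Il33, an alarmin cytokine, had 5.00, 5.34 and 5.05 in knockout fish/fungal pools, against 5.77, 5.52 and 6.26 in knockout lard pools (log2 change -0.72 ± 0.15, adjusted p = 0.0477). Ptgds, a prostaglandin D synthase, had 6.56, 6.90 and 6.99 in fish/fungal pools and 7.73, 8.14 and 7.57 in lard pools (1.99-fold lower, adjusted p = 0.0234), and was the 1 of 16 genes of eicosanoid and epoxide metabolism that passed. Adamdec1, a metalloprotease of macrophages and dendritic cells, was at -0.78 (adjusted p = 0.0336). The call of Adamdec1 was lost whichever pool of the diets compared was left out (limma, highest adjusted p = 0.18). Parp12, an interferon-induced ADP-ribosyltransferase, was at -0.55 (adjusted p = 0.00966) and Slc51b, a subunit of the basolateral bile acid exporter, at -0.68 (adjusted p = 0.033), the 1 of 14 bile acid and sterol transporters. Slc39a10, a zinc importer, was at -0.78 and Rnd2, a small GTPase, at -0.76 (adjusted p = 0.0487 and 0.0338). Outside the 10, Hcar2, the receptor for nicotinate and beta-hydroxybutyrate, was dim and tight at 4.76, 4.88 and 4.85 in fish/fungal pools and 5.36, 5.31 and 5.36 in lard pools (adjusted p = 0.0242). Hcar2 lay above the array median in 3 arrays, the knockout lard pools. It passed the brightness filter only through the group where it is high, so its call is not independent of that filter. In control livers Sprr1a, Il33 and Hcar2 changed by 0.35, 0.06 and 0.04, with control means below or near the array medians. Mcm6 and Pclaf changed by -0.25 each there. None of the 10 genes passed in control livers, and their median change was -0.78 in knockout livers and -0.23 in control livers. The genes were chosen by their knockout values, which favours a larger change there, so these calls and medians do not test the genotypes. The difference between the genotypes did not pass for any of the 10 genes (limma, adjusted p = 0.9998 or above in all, unadjusted p = 0.00046 for Sprr1a and 0.0022 for Il33).

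**Figure D3:**
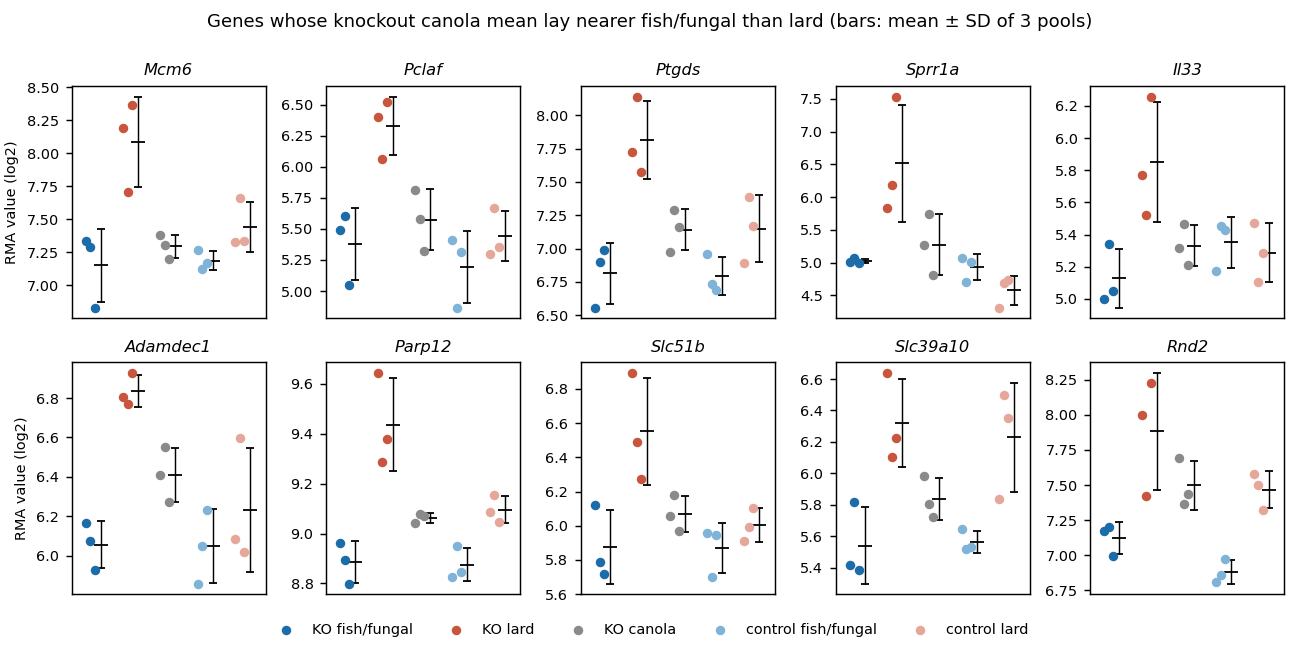
RMA expression (log2) of the 10 genes whose knockout canola mean lay nearer to fish/fungal oil than to lard, by pool, with the mean ± SD of 3 pools. The choice of these genes makes lard the highest of the knockout group means. The knockout lard mean also lies above the control group means in all panels.

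Of 18 cell cycle genes tested, 1 passed (Mcm6), 15 had a negative change, and the median was -0.44, against -0.01 over all genes and -0.01 for the same genes in control livers. Without lard replicate 3 the median was -0.26, and it was negative without each of the 6 pools in turn. The list had 0 calls without lard replicate 1, without lard replicate 3, without fish/fungal replicate 3 or with only the 6 arrays in the fit, and 2 without lard replicate 2 or without fish/fungal replicate 1. The mitotic kinase gene Cdk1 was at -0.67 (adjusted p = 0.186), the helicase subunit gene Mcm5 at -0.67 (0.155) and the cyclin gene Ccnd1 at -0.75 (0.0803), none of them past the threshold. The summed level of the 18 genes, in which the brightest weigh most, was 11.45 to 11.79 in knockout fish/fungal pools. It was 11.90 to 12.17 in knockout lard pools, without overlap, and 11.61 to 11.79 in knockout canola pools. The median level of the 18 genes was 6.74, 6.79 and 6.54 in fish/fungal pools and 6.92, 6.80 and 7.09 in lard pools. By that measure pool 2 of each diet nearly met. Knockout canola pools had medians of 6.96, 6.66 and 6.50. Of 26 interferon-stimulated genes 0 passed, 24 had a negative change (52.5% of all genes did), 10 had non-overlapping and lower fish/fungal pools (6.14% of all genes did), and the median was -0.23. Gbp3 and Irgm1, GTPases induced by interferon gamma, had the smallest p at -0.44 and -0.39 (adjusted p = 0.125 and 0.155).

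Markers of cells other than hepatocytes were read beside these genes. No member of the 12 cell type lists passed. Of 21 markers of Kupffer cells and macrophages 16 had a negative change, and the median change was -0.06 (0.07 without fish/fungal replicate 3). Their summed level was 13.92 to 14.54 in knockout fish/fungal pools and 14.28 to 14.38 in knockout lard pools, so the groups overlapped. Their median level was 8.98, 8.80 and 8.63 in fish/fungal pools and 9.07, 9.31 and 9.23 in lard pools, without overlap. Mmp12, the macrophage elastase, was the one that stood out, at 4.60, 6.15 and 4.10 in fish/fungal pools and 6.55, 7.10 and 6.58 in lard pools (log2 change -1.79 ± 0.39, adjusted p = 0.0512). Fish/fungal pools 1 and 3 lie below the array medians, so the size of the change is uncertain. Without fish/fungal replicate 2 it passed (adjusted p = 0.000852), as did Gpnmb, a macrophage glycoprotein (0.0221). Stellate cell and fibroblast markers had 16 of 19 negative changes, a median of -0.18 and a summed level of 12.92 to 13.30 in fish/fungal pools and 13.00 to 13.36 in lard pools. Sinusoidal endothelial markers had 14 of 15 negative changes and a median of -0.15. The part of such cells in the results above was not tested.

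The lists of drug metabolism and fatty acid oxidation held no call, and the nuclear receptors behind them did not pass. Ppara was at -0.10, Nr1i2, which encodes PXR, at 0.12, Nr1i3, which encodes CAR, at 0.41, and Nr1h4, the bile acid receptor FXR, at 0.30. Of 39 PPARalpha targets and genes of fatty acid oxidation 0 passed in either direction, 26 had a positive change, and the median was 0.10 (-0.01 without lard replicate 1). Cyp4a14, a fatty acid omega-hydroxylase and a marker of PPARalpha activity named after its values were seen, stood at 12.14, 11.47 and 11.10 in knockout fish/fungal pools, against 7.95, 9.74 and 11.77 in knockout lard pools. Its lard pools differ widely from each other and overlap the fish/fungal pools (log2 change 1.75 ± 0.79, adjusted p = 0.545). Of 30 targets of the xenobiotic receptors CAR and PXR 0 passed, with Cyp2b10, the main CAR target, at 0.55 (adjusted p = 0.871) and Gstm2, a glutathione transferase, at -1.02 (0.0611). Gstm2 passed without lard replicate 2 (adjusted p = 0.0116) and without fish/fungal replicate 2 (0.0413). Among 31 other P450 genes 0 passed, with a median of 0.01. Of 17 genes of bile acid synthesis 0 passed, and 5 did not overlap between diets (10.9% of all genes did not). Cyp7a1, the rate-limiting enzyme of bile acid synthesis, named after its values were seen, was 10.75, 10.18 and 11.61 in fish/fungal pools and 8.50, 8.85 and 9.71 in lard pools (log2 change 1.83 ± 0.57, adjusted p = 0.256). Cyp8b1, the sterol 12-alpha-hydroxylase, was at 0.96 (adjusted p = 0.097), and Cyp39a1, the 24-hydroxycholesterol hydroxylase, at -1.66 (adjusted p = 0.103).

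In 5 further lists 0 genes passed. The medians were -0.17 for 18 genes of glucose metabolism, 0.11 for 25 acute phase proteins, -0.05 for 25 stress response genes, 0.13 for 17 clock genes and -0.05 for 12 female-biased genes. The glycolytic enzyme gene Pklr, the liver pyruvate kinase, was at -0.93 (adjusted p = 0.438) and was named after its values were seen. Atf5, a stress-induced transcription factor, was at -0.82 (adjusted p = 0.0566) and passed without lard replicate 2 (0.0273). Among further regulators, Hnf4a was at 0.04, Pparg at 0.02, Ppargc1a, the coactivator PGC-1alpha, at -0.31, Nfe2l2, which encodes NRF2, at -0.38, and Fgf21, a fasting hormone of the liver, at -0.18. None of these 5 passed.

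**Figure D4:**
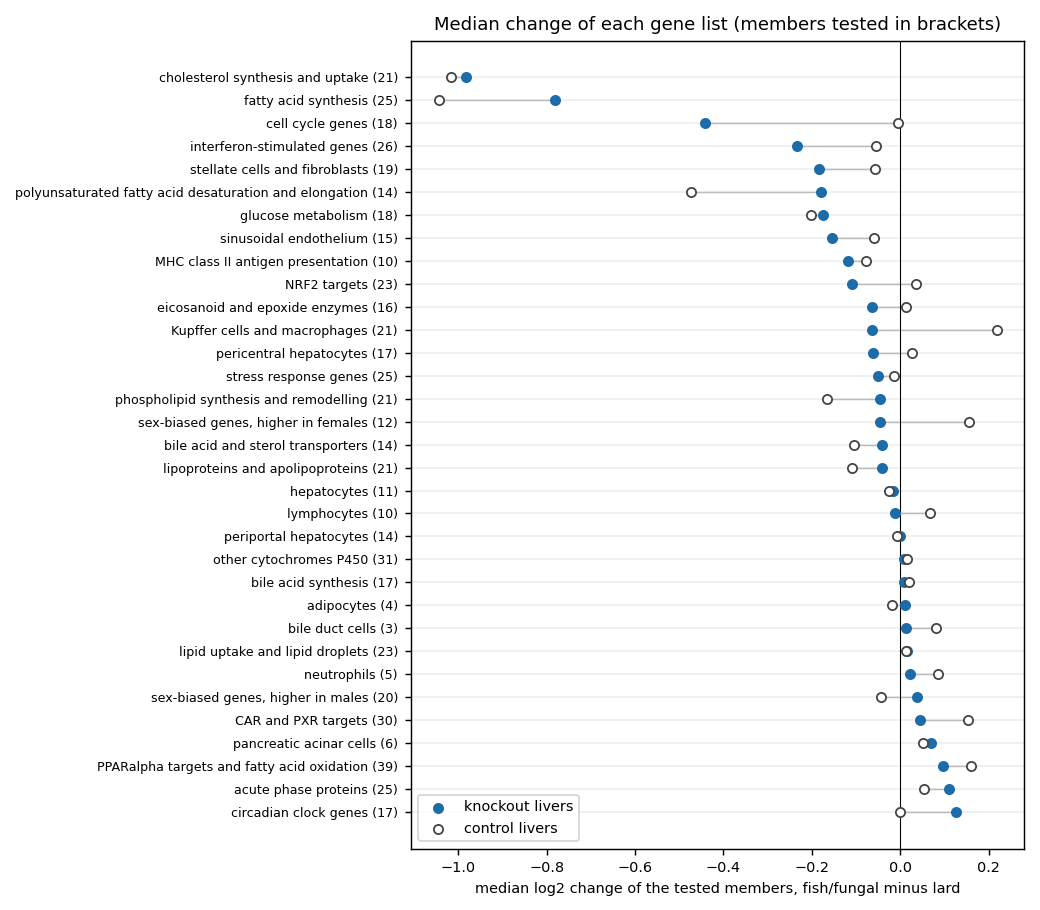
Median log2 change, fish/fungal minus lard, of the tested members of 33 gene lists, in knockout livers (filled) and control livers (open), with the number of members tested in brackets. Cholesterol synthesis at -0.98 and fatty acid synthesis at -0.78 have the lowest medians in knockout livers, and cell cycle genes follow at -0.44.

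The same diets were compared in control livers. The knockout and control changes are differences of means over separate arrays, while both tests take the spread from all 18 arrays. There 90 genes passed (0.716%), of which 35 also passed in knockout livers, a share of 60.3% of the knockout calls and 38.9% of the control calls. Of the 58 genes that passed in knockout livers 55 had the same sign in control livers, against 64.6% of all genes tested. The exceptions were Sprr1a, Il33 and Hcar2, the 3 of the 58 with a group mean below the highest array median. Their control means lay below or near the array medians, so the signs of their control changes are uncertain. The control count was 41 without control lard replicate 2, 52 without control fish/fungal replicate 2 and 51 without control fish/fungal replicate 3. Over all genes the knockout and control changes had a Pearson correlation of 0.625, a description across genes, which are not independent replicates. In control livers Fads1 stood at 8.53, 8.44 and 8.75 in fish/fungal pools and 11.99, 12.22 and 11.79 in lard pools, without overlap and close to the knockout values. Fads1 changed by -3.37 in knockout and -3.42 in control livers, a difference of 0.06 ± 0.37 (SE). Mfsd2a changed by -3.41 and -3.11, a difference of -0.30 ± 0.56, and Apoa4 by -2.60 and -2.53, a difference of -0.06 ± 0.40. Elovl2 fell by 0.78 in knockout livers and by 1.24 in control livers, a difference of 0.46 ± 0.15 (unadjusted p = 0.0073, adjusted p = 0.9998).

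The difference of the diet effect between the genotypes was tested directly for every gene, and 0 of 12578 passed (limma), which is 0.0% of the genes, while 305 had an unadjusted p under 0.05. The smallest adjusted p was 0.743. A p that misses the threshold does not show that the genotypes answer alike. The smallest unadjusted p belonged to Ccn1, a matricellular protein, at 6.37, 6.44 and 6.50 in knockout fish/fungal pools and 6.91, 7.05 and 7.05 in knockout lard pools. In control livers Ccn1 was at 6.38, 7.44 and 7.07 in fish/fungal pools and 6.43, 5.99 and 6.26 in lard pools, so that its changes were -0.57 and 0.73 and their difference -1.30 ± 0.25. It passed without control fish/fungal replicate 1 (adjusted p = 0.00064), as Wfdc12 did without control fish/fungal replicate 2 (adjusted p = 0.00281). Gpc1, a cell surface proteoglycan, followed, with 0.08 in knockout and -0.67 in control livers. Lpl differed by 0.84 ± 0.22 (unadjusted p = 0.0011), at 0.68 in knockout and -0.16 in control livers. Sprr1a, Hcar2, Grasp, Obp2a, Wfdc12, Pbx4 and Gpr137b complete the 10 smallest.

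**Figure D5:**
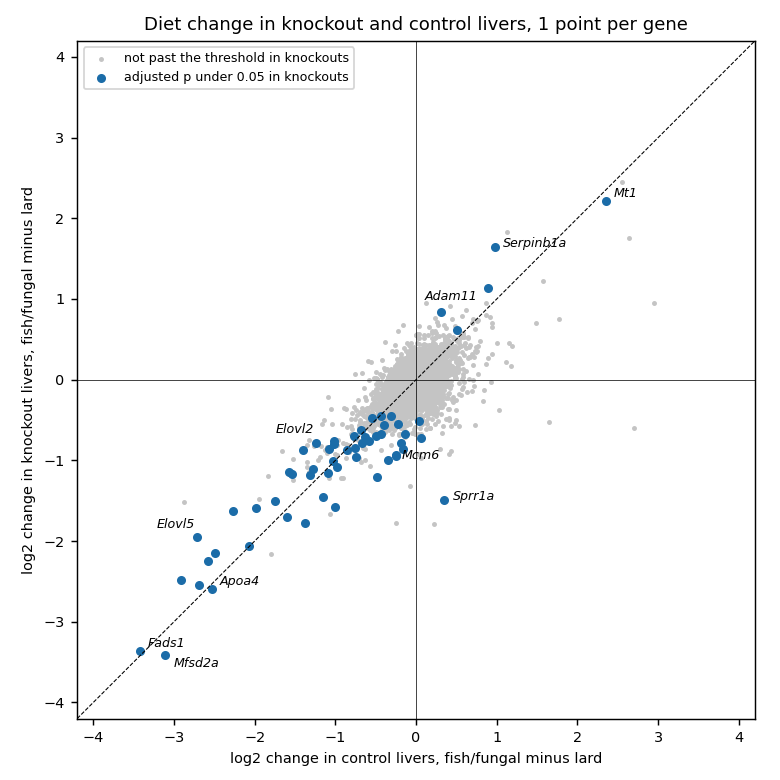
Log2 change with diet, fish/fungal minus lard, in knockout livers (vertical) and control livers (horizontal), 1 point per gene tested, with the 58 genes past the threshold in knockout livers in blue and the dashed line where both changes are equal. Most blue points lie near the line in the lower left, while Sprr1a and Mcm6 lie below it at control changes of 0.35 and -0.25.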

How the data were processed

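Liver RNA of 18 pools was measured on an Affymetrix mouse whole-genome array. The values used are the deposited log2 expression values, made by the authors with RMA per the submitters' processing notes; the software version is not given in the sources used here, and the log2 scale was read from the values (2.409 to 14.893). Of 45101 probe sets, 34945 had 1 gene symbol, 932 several and 9160 were not listed; symbols were updated by gene ID through RefSeq (GRCm38.p6). A gene was read from its brightest probe set and tested if that lay above the array median in at least 3 arrays, which left 12578 of 18193 genes.

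limma 3.58.1 in R 4.3.3 fitted 6 group means to all 18 arrays, with an intensity trend, two-sided p-values adjusted by Benjamini-Hochberg and a threshold of 0.05. Contrasts were fish/fungal minus lard in knockout livers, the same in control livers, and their difference. P-values measure the spread between pools of 3 mice. The number of arrays limits the precision. The script was tested on simulated data.

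The text names up to 15 rises and 15 falls among non-overlapping calls, up to 6 calls of each of 33 gene lists (or 2 values where none passed), the 10 smallest p of the difference, set regulators and, after their values were seen, the remaining calls and genes said to be so named. Members, lists and rule were chosen with earlier results of these data known. Alternatives changed the normalization, the filter, the probe set rule, the variance model or the arrays fitted, left out single arrays, or added the replicate number as a block. The labels do not say that replicate numbers pair the pools, and the main fit used no pairing.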

Additional observations from a re-analysis of the deposited data

How the results depend on the processing

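The count of 58 genes kept its order of size (49 to 73) with quantile normalization repeated, arrays centred, no filter or a stricter one, the mean of probe sets, no _s_at and _x_at probe sets, no intensity trend or a replicate block. It was 30 with array weights and 12 with only the arrays of both groups in the fit, 11 of them shared with the 58. Leaving out 1 pool gave 12 to 116 genes: 12 without lard replicate 1, 34 without lard replicate 3, 32 without fish/fungal replicate 1, 19 without fish/fungal replicate 3, 78 without lard replicate 2 and 116 without fish/fungal replicate 2. The cause was not tested. In control livers the 90 genes became 41 to 67 when 1 pool was left out (41 without control lard replicate 2, 52 without control fish/fungal replicate 2, 51 without control fish/fungal replicate 3). The test of the difference between genotypes gave 0 genes under the other alternatives and 0 to 1 when 1 pool was left out: Ccn1 without control fish/fungal replicate 1 (adjusted p = 0.00064) and Wfdc12 without control fish/fungal replicate 2 (adjusted p = 0.00281). No named gene past the threshold changed sign. Of the 58 genes 11 kept their call without each of the 6 pools and 7 under every alternative run. With the replicate number as a block 50 genes passed in knockout livers (45 shared), 70 in control livers and 0 for the difference. Deviations of equally numbered pools correlated at -0.20, -0.21 and 0.28, and pool 1 on fish/fungal oil correlated best with pool 2 on lard (0.43). With so few pools in a group these values cannot settle whether the numbers pair the pools. Dim probe sets limit what can be read: 3 of the 58 genes (Sprr1a, Il33 and Hcar2) had a group mean below the highest array median. Other bright probe sets of 29 of the genes had the same sign in 40 of 43 cases, the exceptions being 1 each of Lss, Cdc42ep5 and Tubb6.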
